A study of Mus musculus with 4 samples.

Results

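Keratin genes were described in skin cells and skin spots of tenotomy-site tissue harvested 7 days after burn/tenotomy (BT). This injury combines a burn on the back with a cut through the Achilles tendon. The skin described here came from the tenotomy site and not from the burned back. The members were all genes whose symbol is Krt followed by a number alone. This gave 49 of 32285 gene rows in the single-cell data and 45 of 19465 in the sections, and Krt18, Krt79, Krt86 and Krt88 were not analysed here for the sections. Krt6a, Krt6b, Krt33a and Krt33b carry a letter in their symbol, so they were not members and are given beside them as partner chains. The rule used names only and no measured value.

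The study addressed aberrant bone formation after injury, and the skin was carried along with the injury site. Single-cell RNA sequencing (scRNA-seq) gave library 1-2, in which the labels combine replicates 1 and 2, and library 3, which holds replicate 3. Both came from unsorted cells of Hoxa11CreER;ROSA-LSL-TdTomato;Hif1a fl/fl mice that received tamoxifen at 75 mg/kg for 5 days before BT. In this model a floxed Hif1a can be deleted by a tamoxifen-inducible Cre driven by Hoxa11, a limb patterning gene, and the labels write no plus or minus sign after the Cre. Sections A1 and B1, profiled with Visium (gene-specific probes bound to RNA in the tissue, then captured and counted on a grid of spots), came from 10-week-old male wild-type C57BL/6 mice after the same injury. All cells and sections were from injured limbs, and uninjured skin was not analysed here, so no value below compares wounded with intact skin.

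Keratins are the intermediate filament proteins of epithelia, and a filament needs a type I chain paired with a type II chain. Dividing basal keratinocytes carry Krt5 with Krt14, and cells that leave the basal layer switch to Krt1 with Krt10. Krt16 and Krt17 with Krt6a and Krt6b are known for their induction at wound edges, while other keratins build the inner root sheath and the shaft of the hair. In the mouse genome (GRCm38) the genes formed 2 clusters. Of the 49 members, 25 lay on chromosome 11 between 99232761 and 100269871 in the type I cluster, and 24 lay on chromosome 15 between 101347444 and 102032027. The latter is the type II cluster, which also holds Krt18, the type I partner of Krt8.

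Promoter sequences are shown for 3 members that the results turn on: Krt5, Krt10 and Krt2. Krt5 is a basal keratin that was higher in epidermal spots near the wound mesenchyme. Krt10 was the most abundant keratin of the gated keratinocytes. Krt2 was lower in epidermal spots near the wound mesenchyme, where far spots also held more skeletal muscle signal. Each runs 5′ to 3′ from 250 bases before to 50 bases after the RefSeq start site in GRCm38.p6, on the minus strand, at chr15:101712856-101713155 for Krt5, chr11:99389315-99389614 for Krt10 and chr15:101818120-101818419 for Krt2. Capitals mark TATAAA, the core letters of the TATA box, which lies 26 bases before the start of Krt10.
Krt5: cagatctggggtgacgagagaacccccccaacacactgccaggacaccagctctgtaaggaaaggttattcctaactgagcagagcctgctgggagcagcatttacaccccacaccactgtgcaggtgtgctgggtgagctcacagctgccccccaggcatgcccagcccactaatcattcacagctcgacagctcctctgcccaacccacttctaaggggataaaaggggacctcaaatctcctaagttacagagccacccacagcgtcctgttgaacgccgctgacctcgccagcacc
Krt10: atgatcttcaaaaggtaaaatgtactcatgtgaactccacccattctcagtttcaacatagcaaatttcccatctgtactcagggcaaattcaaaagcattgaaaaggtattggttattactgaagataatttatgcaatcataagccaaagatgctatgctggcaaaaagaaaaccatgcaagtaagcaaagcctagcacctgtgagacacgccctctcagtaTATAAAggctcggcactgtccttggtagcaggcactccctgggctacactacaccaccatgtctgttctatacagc
Krt2: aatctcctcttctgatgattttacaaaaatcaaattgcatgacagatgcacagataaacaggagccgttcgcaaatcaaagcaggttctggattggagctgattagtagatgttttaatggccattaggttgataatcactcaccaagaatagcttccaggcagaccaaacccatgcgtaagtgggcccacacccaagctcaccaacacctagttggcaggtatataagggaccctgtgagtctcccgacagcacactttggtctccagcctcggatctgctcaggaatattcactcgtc
A promoter was given for 35 of the 49 members. TATAAA was found on either strand in 18 of these 35 windows (51.4%) and in 3827 of 27025 windows of all genes (14.2%). The GC-rich GGGCGG, which Sp1 and KLF factors can bind, was found in 2 of the 35 (5.71%) against 35.9% of all windows. The AP-1 letters TGANTCA were found in 1 of the 35 (2.86%) against 7.93%, and the AP-2 letters GCCNNNGGC in 7 of the 35 (20%) against 16.5%. All were searched on both strands, and a match is only a description of these letters.

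After filtering, 1276 and 795 cells were kept in libraries 1-2 and 3 (median 13144 and 17213 unique molecular identifiers, UMIs, per cell), and 3504 and 3185 spots in sections A1 and B1 (median 460 and 518 UMIs). The libraries shared 1 cell barcode. Cells were classed by 12 marker genes per class, and no keratin was among them. This gave 61 keratinocytes in library 1-2 and 41 in library 3, with a median of all 12 keratinocyte markers detected per cell. The defining markers of the other classes were low in these cells: the 12 endothelial markers summed to 3.76 and 5.65 CPM (UMIs of a gene per 1000000 UMIs of the group), with 7 and 8 of them at 0. The 12 macrophage markers summed to 19.3 and 8.47 CPM, and the 12 mesenchymal markers to 203.5 and 423.5 CPM. Spots were classed by whether the summed UMIs of a marker list exceeded what their depth would give, and each spot can hold several cells of different types. There were 109 epidermal spots in A1 and 129 in B1. Nothing in the labels says how many animals the sections came from, so p-values cannot be read as spread between animals. They rest on the spread left among classes once the level of each library or section is taken out. The estimate of this spread is shared by all classes of a fit, and intervals cover counting error only.

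Gated keratinocytes devoted a median of 3.39% (library 1-2) and 3.06% (library 3) of their UMIs to keratins, with a range over cells of 0.323% to 9.61% and of 0.153% to 6.60%. The median was 0.00234% and 0.00239% in mesenchymal cells and 0 in macrophages. Of the 49 members, 29 had a UMI in keratinocytes of at least 1 library, 12 had at least 50 UMIs in both, and 20 had none. Suprabasal keratins made up 73.9% and 90.0% of the keratin UMIs of keratinocytes, basal keratins 16.3% and 5.49%, and wound-induced keratins 5.18% and 2.85%. Both libraries were thus led by the same list, but library 3 held a smaller basal share.

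**Figure D1:**
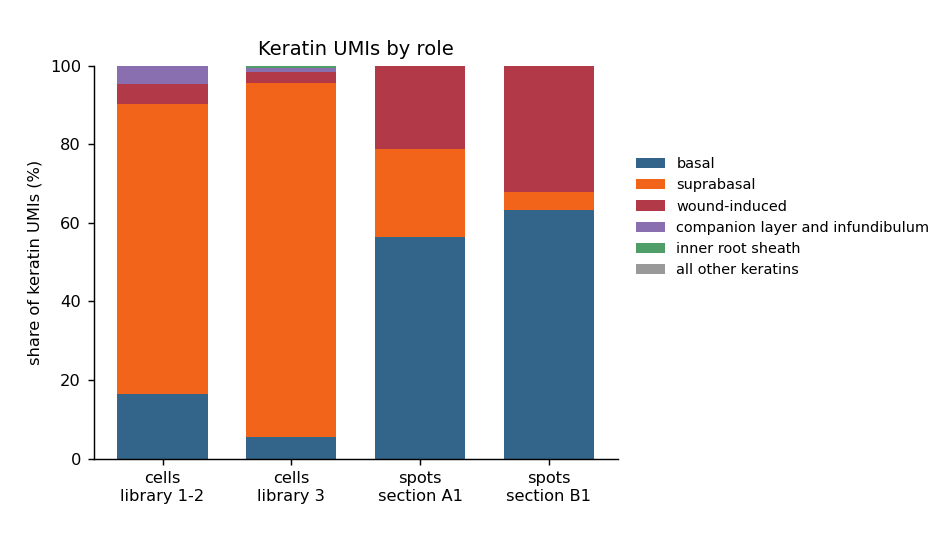
Share of all member UMIs (y axis, percent) taken by each role list in gated keratinocytes of libraries 1-2 and 3 and in epidermal spots of sections A1 and B1. Suprabasal keratins fill 73.9% and 90.0% of the cell bars, and basal keratins 56.3% and 63.4% of the spot bars.

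Krt10, the type I keratin of cells that have left the basal layer, was the most abundant member in keratinocytes, at 17971 CPM in library 1-2 and 21296 CPM in library 3. Its type II partner Krt1 followed at 6487 and 9181 CPM. Krt77, a further suprabasal type II chain, stood at 3816 and 3890 CPM. These 3 were close between the libraries on this scale. Krt2, a type II chain of the upper spinous layer, was not: it stood at 1125 CPM in library 1-2 and 96.7 CPM in library 3. Of its UMIs, 1 cell held 793 of 2094 in library 1-2 and 1 cell 127 of 137 in library 3. Krt78 (74.6 and 91.1 CPM) and Krt80 (163.8 and 145.4 CPM) were low but present in both libraries.

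Among basal keratins, Krt14 stood at 4412 and 1021 CPM, Krt5 at 1435 and 573.9 CPM, and Krt15, which is also known from the hair follicle bulge, at 709.9 and 522.4 CPM. Library 1-2 was the higher for all 3. Krt17 stood at 1474 and 603.5 CPM and Krt16 at 602.5 and 494.1 CPM. In library 3, 1 cell held 478 of the 855 Krt17 UMIs and 1 cell 234 of the 700 Krt16 UMIs, and Krt17 was found in 14 and Krt16 in 17 of 41 cells. The partners Krt6a (78.9 and 52.2 CPM) and Krt6b (24.7 and 10.6 CPM) had lower counts, and all Krt6b UMIs came from 1 cell in each library. Of the 50-base words of their transcripts, 48.5% for Krt6a and 44.8% for Krt6b were also found in another keratin, so these counts are uncertain. Krt79, a keratin of the hair follicle infundibulum and sebaceous duct, stood at 1805 and 413.7 CPM. In library 1-2 it was found in 11 of 61 cells. In library 3 it was found in 5 of 41 cells, and 1 cell held 556 of its 586 UMIs.

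Keratinocytes were tested against the equal-weight mean of mesenchymal, macrophage, T or NK, endothelial and mural cells, to ask which keratins marked them. Of the 49 members, 15 passed the filter on low counts, a filter that members high in keratinocytes could pass through that group alone, and 13 of the 15 were higher in keratinocytes. None was lower with edgeR or with DESeq2, nor at an unadjusted p under 0.05. Over all 12060 genes tested, 26.0% were higher (edgeR quasi-likelihood test, adjusted p of at most 0.05). The 13 were Krt1, Krt2, Krt5, Krt7, Krt10, Krt14, Krt15, Krt16, Krt17, Krt77, Krt78, Krt79 and Krt80. Krt20 and Krt83, the other 2, had no UMI in any gated keratinocyte. Krt16 had 1122 and 700 UMIs in keratinocytes and 2 and 0 in the 5 other classes together, which makes it at least 2695-fold higher in library 3 against a floor of 3 counts over those classes. Krt10 had the highest level outside, with 424 and 380 UMIs over the 5 classes (20.4 and 23.2 CPM). Thinned to 10000 UMIs per cell, Krt10 was found in 87.0% of 54 and 84.8% of 33 keratinocytes, and in 21.1% of 336 and 20.6% of 267 mesenchymal cells (unthinned, 86.9% and 85.4% against 52.8% and 59.3%). For Krt14 the thinned shares were 70.4% and 33.3% of keratinocytes against 0.298% and 0.375% of mesenchymal cells (unthinned, 75.4% and 53.7% against 1.86% and 0.667%). Thinning left out 7 and 8 keratinocytes and 41 and 33 mesenchymal cells below that depth, from medians of 29642 and 32336 UMIs in keratinocytes and 40778 and 43624 UMIs in mesenchymal cells.

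Keratinocytes were then divided by 7 basal and 7 suprabasal layer markers, none of them a keratin, into 23 basal and 30 suprabasal cells in library 1-2 and 11 and 26 in library 3. The remaining 8 and 4 cells were in neither. The division rested on a difference of a single marker in 13 and 4 cells. Basal cells of library 3 also carried more of other lists: the 12 mesenchymal markers summed to 1426 CPM there and to 391.6 CPM in basal cells of library 1-2, against 83.9 to 89.2 CPM in suprabasal cells, and the 8 hair follicle markers to 975.8 and 295.5 CPM against 44.6 and 93.3 CPM. Their part in the results was not tested.

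The filter on low counts could be passed through 1 layer alone, so the counts of members are a description. Of 17 members that passed the filter, 9 were higher in suprabasal cells and 3 in basal cells, where 7.93% and 7.67% of all 11370 genes tested were called in those directions. The 3 basal keratins made up the whole basal side. Krt5 stood at 3815 CPM in basal and 32.1 CPM in suprabasal cells of library 1-2, and at 2085 and 64.8 CPM in library 3. The library sums of the layers did not overlap, and the difference was -5.50 on the log2 scale (SE 0.40, adjusted p = 5.42e-07, edgeR). Single cells did overlap: a Krt5 UMI was found in 18 of 23 and 10 of 11 basal cells, and in 8 of 30 and 5 of 26 suprabasal cells. Krt15 stood at 1933 and 12.03 CPM in library 1-2 and at 1833 and 92.4 CPM in library 3, a log2 difference of -4.98 (SE 0.47, adjusted p = 9.89e-06, edgeR). Krt14 was less even between libraries: it stood at 8306 CPM in basal and 2292 CPM in suprabasal cells of library 1-2, but at 3923 and 41.4 CPM in library 3. Its log2 difference was -3.57 (SE 0.68, adjusted p = 0.00211, edgeR), and the within-library values of -1.86 and -6.53 lay far apart. A Krt14 UMI was found in 21 of 30 suprabasal cells of library 1-2 and in 9 of 26 of library 3. Krt14 missed the threshold without library as a block (adjusted p = 0.195) and with DESeq2 (adjusted p = 0.0563).

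All 6 suprabasal keratins were on the suprabasal side. Krt10 stood at 24128 CPM in suprabasal and 7443 CPM in basal cells of library 1-2, and at 27898 and 4265 CPM in library 3 (log2 difference 2.53, SE 0.25, adjusted p = 7.32e-06, edgeR). Krt10 was thus the second most abundant keratin of basal cells in library 1-2, after Krt14, and the most abundant in library 3. It was spread unevenly over these cells: the median basal cell had 2 and 3 Krt10 UMIs, and 1 cell held 1358 of 5037 and 946 of 1508. Krt1 stood at 7946 against 3372 CPM and at 11998 against 1301 CPM (log2 difference 2.54, SE 0.41). Krt77 stood at 5136 against 1461 CPM and at 5094 against 1063 CPM (log2 difference 2.41, SE 0.24). Krt78 (log2 difference 3.58, SE 0.44) and Krt80 (1.60, SE 0.29) also passed. Krt2 passed at 1.88 (SE 0.42, adjusted p = 0.00901, edgeR), but 535 of its 536 basal UMIs in library 1-2 came from 1 cell. Krt2 missed the threshold without the block (adjusted p = 0.4999) and with DESeq2 (adjusted p = 0.959).

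Of the 2 wound-induced keratins, Krt16 stood at 959.6 CPM in suprabasal and 133.0 CPM in basal cells of library 1-2, and at 721.1 and 11.3 CPM in library 3, a log2 difference of 3.92 (SE 0.41, adjusted p = 5.83e-05, edgeR). It was found in 10 of 30 and 11 of 26 suprabasal cells, and in 7 of 23 and 2 of 11 basal cells. The call was lost with DESeq2, where the difference of 4.07 had an adjusted p of 0.720. Krt17 stood at 2225 CPM in suprabasal against 750.7 CPM in basal cells of library 1-2, and at 537.4 against 936.2 CPM in library 3, so its direction turned between libraries and it did not pass (log2 difference 0.77, SE 0.36, adjusted p = 0.182, edgeR). A single suprabasal cell held 1342 of 2219 Krt17 UMIs in library 1-2 and 478 of 506 in library 3. Whether Krt16 and Krt17 differed from each other was not tested. Krt6a passed at 1.99 (SE 0.46, adjusted p = 0.0124, edgeR), but missed the threshold without the block (adjusted p = 0.0507) and with DESeq2 (adjusted p = 0.924). A single suprabasal cell held 79 of 110 Krt6a UMIs in library 1-2 and 62 of 72 in library 3, and 1 basal cell of library 1-2 held 33 of 35. Over the 61 and 41 keratinocytes, Krt16 and Krt17 levels had a Pearson r of -0.06 and -0.17 on the log2 scale, and Krt17 and Krt79 one of 0.74 and 0.54. The same measure was 0.93 and 0.96 for the pair Krt1 and Krt10, 0.64 and 0.92 for Krt5 and Krt14, and -0.65 and -0.63 for Krt14 and Krt10. These cells share their library and depth, so the values are a description.

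**Figure D2:**
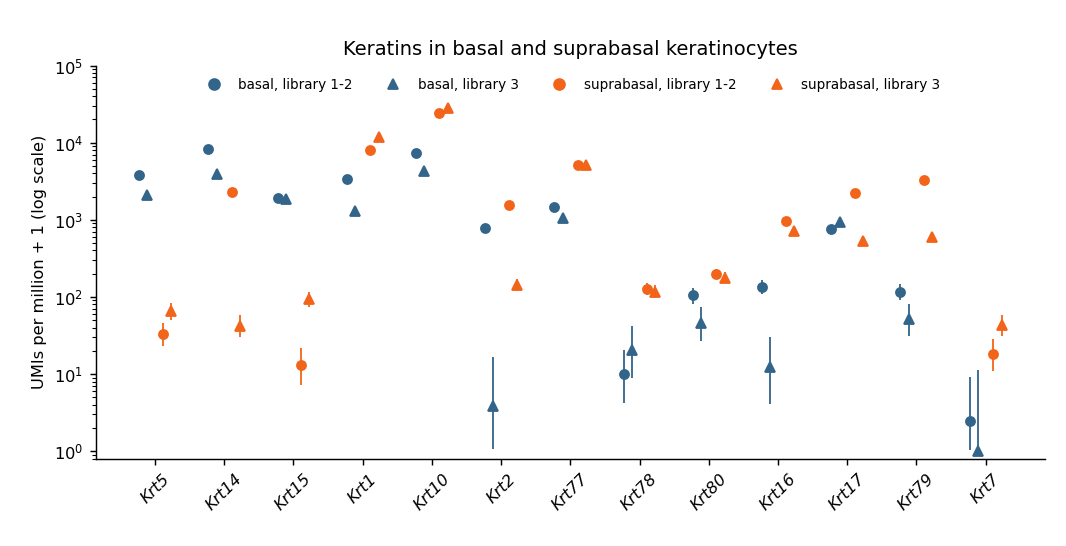
CPM plus 1 (y axis, log scale) of 13 keratins in basal (blue) and suprabasal (orange) keratinocytes; circles are library 1-2, triangles library 3, and bars the exact Poisson 95% interval of each sum. Krt5 and Krt15 lie higher in basal cells of both libraries, Krt10 and Krt16 higher in suprabasal cells, and Krt17 turns its direction between libraries.

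Krt79 (log2 difference 4.71, SE 0.35, adjusted p = 2.22e-06, edgeR) and Krt7, a simple epithelial keratin (5.03, SE 1.15, adjusted p = 0.00842, edgeR), were the other members on the suprabasal side. The Krt79 UMIs of suprabasal cells came from 9 of 30 cells in library 1-2 and from 2 of 26 in library 3, where 1 cell held 556 of 568. In basal cells it was found in 2 of 23 and in 3 of 11, so the share of cells with a UMI was lower in suprabasal (7.69%) than in basal cells (27.3%) of library 3. Krt7 had 17 and 40 suprabasal UMIs in 7 cells of each library, and 1 and 0 basal UMIs. Krt20, Krt83, Krt25, Krt28 and Krt17 were the 5 tested members that did not pass, and Krt20 and Krt83 had no UMI in either layer. Summed over members, type I chains stood at 1.69 times type II chains in keratinocytes of library 1-2 and at 1.66 times in library 3.

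Hair keratins were rare in the sampled cells. Of 13 hair shaft keratins, Krt32, Krt35 and Krt86 had any UMI in keratinocytes, with 8 UMIs over the list in library 1-2 and 6 in library 3. The 7 inner root sheath keratins had 4 UMIs in library 1-2 and 244 in library 3. Within library 3, Krt28 had 114 UMIs, Krt73 64, Krt25 43, Krt27 13 and Krt71 10. Few cells carried this difference: 3 cells held 240 of the 244 UMIs, and 1 cell held 187. Of the remaining lists, Krt75 of the companion layer had 14 and 1 UMIs and Krt23 46 and 2. Krt12, a corneal keratin, had 1 and 8 UMIs, and Krt24 had 0 and 5. Krt8 and Krt18, the keratins of simple epithelia, and Krt9 of palm and sole had none in either library, which allows up to 1.61 and 2.12 CPM.

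A few members were found mainly or also in other classes, and these were chosen for mention after their values were seen. Krt83, listed with the hair shaft keratins, stood at 47.2 CPM in T or NK cells of library 1-2 (46 UMIs in 18 of 122 cells) and at 101.7 CPM in library 3 (36 UMIs in 14 of 40 cells). It had no UMI in keratinocytes, macrophages, endothelial or mural cells of either library. In mesenchymal cells it had 0 UMIs in library 1-2 and 7 UMIs in 2 of 300 cells in library 3, where 1 cell held 6. Of the 50-base words of the Krt83 transcript, 23.2% were also found in another keratin, mostly Krt86 (19.7%), so its counts are uncertain. Krt20 stood at 12.1 and 19.9 CPM in endothelial cells, with 17 UMIs in 13 of 83 cells and 15 UMIs in 3 of 46 cells, and 1 cell of library 3 held 12 of the 15. Krt80 stood at 15.2 and 20.9 CPM in macrophages (28 of 196 and 18 of 110 cells), below its keratinocyte level, and at 0 in T or NK and endothelial cells. Krt19 stood at 6.56 and 9.71 CPM in mural cells, on 9 UMIs in each library. These came from 5 of 71 and 2 of 41 cells, and 1 cell held 5 and 7 of them. Mesenchymal cells had 23 and 16 Krt19 UMIs, in 5 of 377 and 3 of 300 cells.

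In the sections the balance of the keratins was another. Basal keratins made up 56.3% of member UMIs in epidermal spots of A1 and 63.4% in B1, wound-induced keratins 21.1% and 32.0%, and suprabasal keratins 22.3% and 4.51%. Krt14 led at 33837 CPM in A1 and 51329 CPM in B1. Krt16 came next at 13460 and 27314 CPM, and its partner Krt6b, outside the rule, stood at 7863 and 10063 CPM. Krt17 stood at 99.4 and 206.6 CPM. Krt6a stood at 490.2 and 1021 CPM. Krt6a and Krt6b share 43.6% of the 50-base words of the Krt6a transcript, and Krt14 and Krt16 share 11.4% of those of the Krt14 transcript. In the sections the split between such genes depends on the probe sequences, which were not examined. Probes can also bind unequally, and the part of this in the order of the keratins was not tested.

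Krt1 stood at 7300 CPM in A1 and 2449 CPM in B1, Krt10 at 2060 and 962.0 CPM, Krt5 at 1835 and 3069 CPM, and Krt15 at 516.7 and 129.8 CPM. A1 thus had more of the suprabasal pair and B1 more of Krt5. Krt78 (99.4 and 118.0 CPM) and Krt80 (66.2 and 94.4 CPM) were low. Krt77, the third most abundant member in cells of library 3, had 1 UMI in epidermal spots of A1 and 0 in those of B1, which allows up to 17.7 CPM in B1. This counts bound Krt77 probe only. Cells and sections differed in mouse genotype, in chemistry, and in how cells reached the assay, and these cannot be told apart. In the sections, fewer cells of a type and less RNA per cell also cannot be told apart.

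Epidermal spots were tested against the equal-weight mean of the 7 other spot classes (wound mesenchyme, myeloid, skeletal muscle, cartilage, bone, tendon and adipose). Of 45 members, 7 passed the filter on low counts, which members high in epidermal spots could pass through that group alone, and all 7 were higher in epidermal spots, where 17.8% of all 3049 genes tested were higher (edgeR, adjusted p of at most 0.05). The log2 differences lay between 2.84 and 3.65: Krt14 2.93 (SE 0.16), Krt5 2.94 (SE 0.18), Krt15 3.65 (SE 0.39), Krt1 3.21 (SE 0.17), Krt10 3.10 (SE 0.20), Krt2 2.89 (SE 0.23) and Krt16 2.84 (SE 0.17). Krt6b differed by 2.81 (SE 0.17) and Krt6a by 2.64 (SE 0.23). Within sections Krt2 was the uneven member, at 3.39 in A1 and 1.55 in B1. Its call is against the mean of the classes only, since skeletal muscle spots lay above epidermal spots for Krt2. They had 5459 against 4789 CPM in A1 and 914.1 against 259.7 CPM in B1.

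Keratin UMIs were found in every spot class. Krt14 was found in 92.7% and 97.7% of epidermal spots and also in 82.0% and 85.6% of all other spots, and epidermal spots held 30.6% and 36.6% of all Krt14 UMIs. Krt14 fell with distance from the nearest epidermal spot: it stood at 11804 CPM in A1 and 15589 CPM in B1 at 100 µm, the spacing of the spots, at 7101 and 7587 CPM in the ring that ends at 300 µm, and at 4108 and 5074 CPM beyond 1000 µm. Per 100 Krt14 UMIs there were 39.8 Krt16 UMIs in epidermal spots of A1, and between 38.6 and 43.0 in the rings around them. In B1 there were 53.2 in epidermal spots and between 47.6 and 59.8 in the rings. What carried keratin UMIs into the other classes was not tested.

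**Figure D3:**
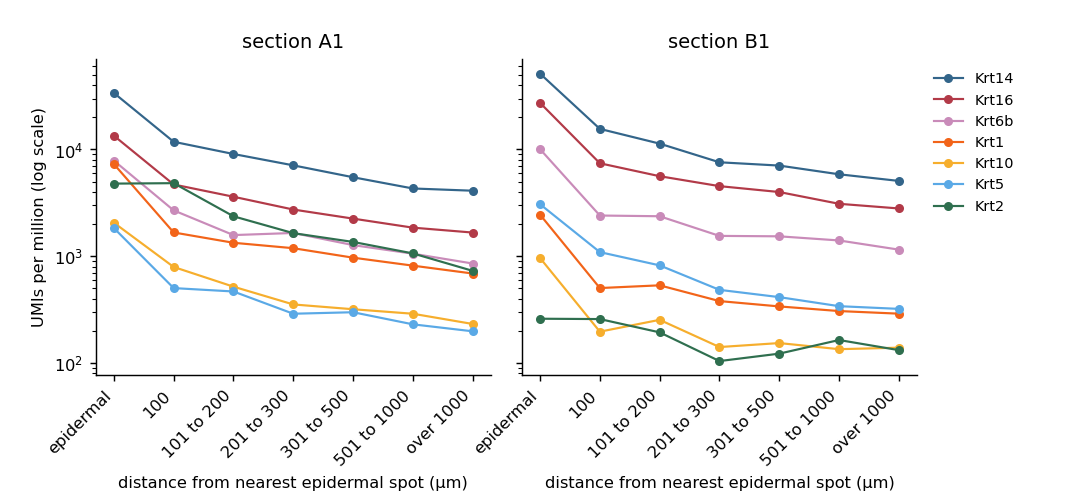
CPM (y axis, log scale) of 7 keratins in epidermal spots and in all other spots grouped by distance from the nearest epidermal spot (x axis, µm), in sections A1 and B1. Krt14 stays the highest in every ring and falls from 33837 to 4108 CPM in A1 and from 51329 to 5074 CPM in B1, and Krt2 lies level between epidermal spots and the first ring.

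Hair spots, classed by 22 hair genes that include no keratin, were few: 12 in A1 and 11 in B1, with 6089 and 8083 UMIs in all. Their median distance to an epidermal spot was 707.0 and 692.8 µm. They were too few for the planned test and are described. Krt25, an inner root sheath keratin, had 21 and 8 UMIs in them (3449 and 989.7 CPM) against 4 and 2 UMIs in the far deeper epidermal spots (26.5 and 11.8 CPM). Krt87, a hair shaft keratin, had 11 and 4 UMIs against 0 and 1, and Krt75 had 7 and 1 against 2 and 1. Krt14 stood at 3777 and 7423 CPM in hair spots, beside a mean of 5814 and 6411 CPM over the 7 classes that are neither hair nor epidermal.

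With a looser limit on the class (tail probability under 0.01), 30 and 27 hair spots could be tested against 151 and 163 epidermal spots. The filter on low counts could be passed through the hair spots alone, so the count of members higher there is a description. Of 14 members tested, 4 were higher in hair spots, where 0.953% of all 4512 genes were higher, and 6 were lower, where 3.48% were lower. The 4 were Krt25 (29 and 9 UMIs against 5 and 2, log2 difference 5.47, SE 0.73), Krt87 (12 and 4 against 1 and 1, 5.84, SE 1.19), Krt73 (3 and 4 against 1 and 0, 5.60, SE 1.52) and Krt75 (7 and 4 against 2 and 2, 4.50, SE 1.11). Krt15, Krt17, Krt78 and Krt80 did not pass. The 6 were Krt1, Krt2, Krt5, Krt10, Krt14 and Krt16, led by Krt5 at -3.71 (SE 0.47) and Krt14 at -3.36 (SE 0.28). In B1 alone, Krt2 stood at 258.3 CPM in hair and 256.4 CPM in epidermal spots.

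Epidermal spots were divided at the median distance to the nearest wound mesenchyme spot, 346.4 µm in A1 and 458.3 µm in B1. The aim was to ask how keratins of epidermal spots vary with nearness to the injured tissue. This gave 56 near and 53 far spots in A1 and 65 and 64 in B1. Of 9 members tested, Krt5 was higher near the wound mesenchyme and Krt2 lower, where 0.169% and 0.237% of all 2955 genes were called in those directions (5 and 7 genes). Krt5 stood at 2323 CPM near and 495.8 CPM far in A1, and at 3777 and 1328 CPM in B1 (log2 difference 1.84, SE 0.31, adjusted p = 4.61e-05, edgeR). Krt2 stood at 849.8 CPM near and 15592 CPM far in A1, and at 41.5 and 796.7 CPM in B1 (log2 difference -3.96, SE 0.37, adjusted p = 5.14e-16, edgeR). For Krt5 both near values lay above both far values. For Krt2 the order held within each section, but the sections overlapped, since 849.8 CPM near in A1 lay above 796.7 CPM far in B1. Both calls were lost without section as a block (adjusted p = 0.0801 for each), where edgeR called no gene of 2955 (147 higher and 78 lower at an unadjusted p under 0.05).

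The other 7 members did not pass in this comparison. Krt14 stood at 40517 CPM near and 15518 CPM far in A1, and at 57545 and 36033 CPM in B1 (log2 difference 1.04, SE 0.29, adjusted p = 0.0698, edgeR). It passed among spots classed with a tail under 0.00001 (1.34, adjusted p = 0.00299, edgeR), as did Krt16 (1.22, adjusted p = 0.00443). Krt16 stood at 15341 against 8304 CPM and at 30594 against 19242 CPM (0.83, SE 0.29, adjusted p = 0.267, edgeR). Krt6a differed by 1.33 (SE 0.37, adjusted p = 0.0773, edgeR) and Krt6b by 0.87 (SE 0.29, adjusted p = 0.2499, edgeR). Krt1 and Krt10 differed by 0.70 (SE 0.28) and 0.42 (SE 0.29). Krt15, also not called, stood at 605.7 CPM near and 272.7 CPM far in A1, on 67 and 11 UMIs. In B1 it stood at 174.3 and 20.4 CPM, on 21 and 1 UMIs. Krt78, not called either, went the other way, at 72.3 against 173.5 CPM in A1 and 99.6 against 163.4 CPM in B1. Near and far spots also differed in depth, with a median of 1657 UMIs per near spot and 654 per far spot in A1 and of 1508 and 704 in B1. The 20 epidermal markers summed to 30157 CPM near and 42761 CPM far in A1, and to 24734 and 29721 CPM in B1. The 14 skeletal muscle markers summed to 1772 and 4660 CPM in A1 and to 166.0 and 612.8 CPM in B1, with 1 and 2 of them at 0 in A1 and 7 and 6 in B1. The part of depth and of muscle in the result was not tested.

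**Figure D4:**
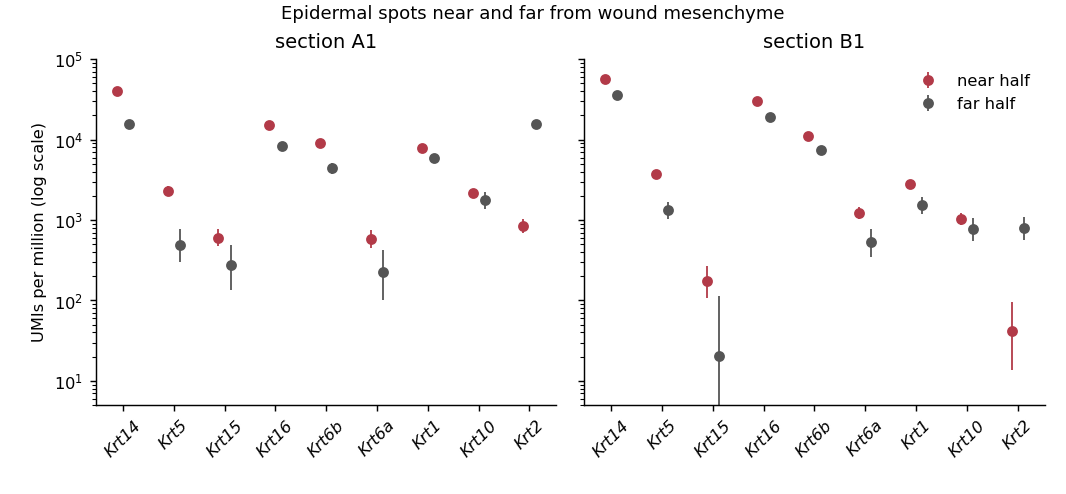
CPM (y axis, log scale) of 9 keratins in the near (red) and far (grey) epidermal spots of each section; bars are the exact Poisson 95% interval of each sum. Krt5 is higher in near spots of both sections, and Krt2 is higher in far spots, at 15592 against 849.8 CPM in A1.

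Krt2 was described further, because its place in the sections differed from that of the other keratins. Skeletal muscle spots had 5459 CPM of Krt2 in A1, above the 4789 CPM of epidermal spots, and 914.1 CPM in B1, above 259.7 CPM. In the 6 other classes that are neither muscle, epidermal nor hair it lay between 92.4 and 660.4 CPM in A1 and between 25.7 and 186.5 CPM in B1. Muscle spots more than 300 µm from any epidermal spot still had 3198 and 835.2 CPM, against 885.1 and 118.8 CPM in spots at that distance that were neither muscle nor epidermal. For Krt14 the values were closer, at 6233 and 7027 CPM in those muscle spots against 4362 and 5717 CPM. The 20 and 16 single cells classed as skeletal muscle had no Krt2 UMI, but with 71124 and 20575 UMIs in all this allows up to 42.2 and 145.8 CPM.

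Epidermal spots beside muscle carried most of the epidermal Krt2. In A1, 40 epidermal spots lay within 300 µm of a skeletal muscle spot and had 16485 CPM of Krt2, against 1307 CPM in the other 69. In B1, 16 such spots had 2341 CPM, against 45.6 CPM in the other 113. For Krt14 the same spots had 9094 against 41204 CPM in A1 and 49159 against 51553 CPM in B1. Epidermal spots beside muscle were thus the higher in Krt2 in both sections, while their Krt14 was far lower in A1 and nearly level in B1. These values were looked at after the difference between near and far spots was seen and carry no test. In the deposited spatial score, Moran's I, which is high where neighbouring spots have like values, Krt2 ranked 4 of 19132 genes in A1 and 59 of 19222 in B1. Krt14 ranked 8 and 4, and Krt16 14 and 10. Of 45 members, 15 were in the top 5% in A1 and 10 in B1.

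**Figure D5:**
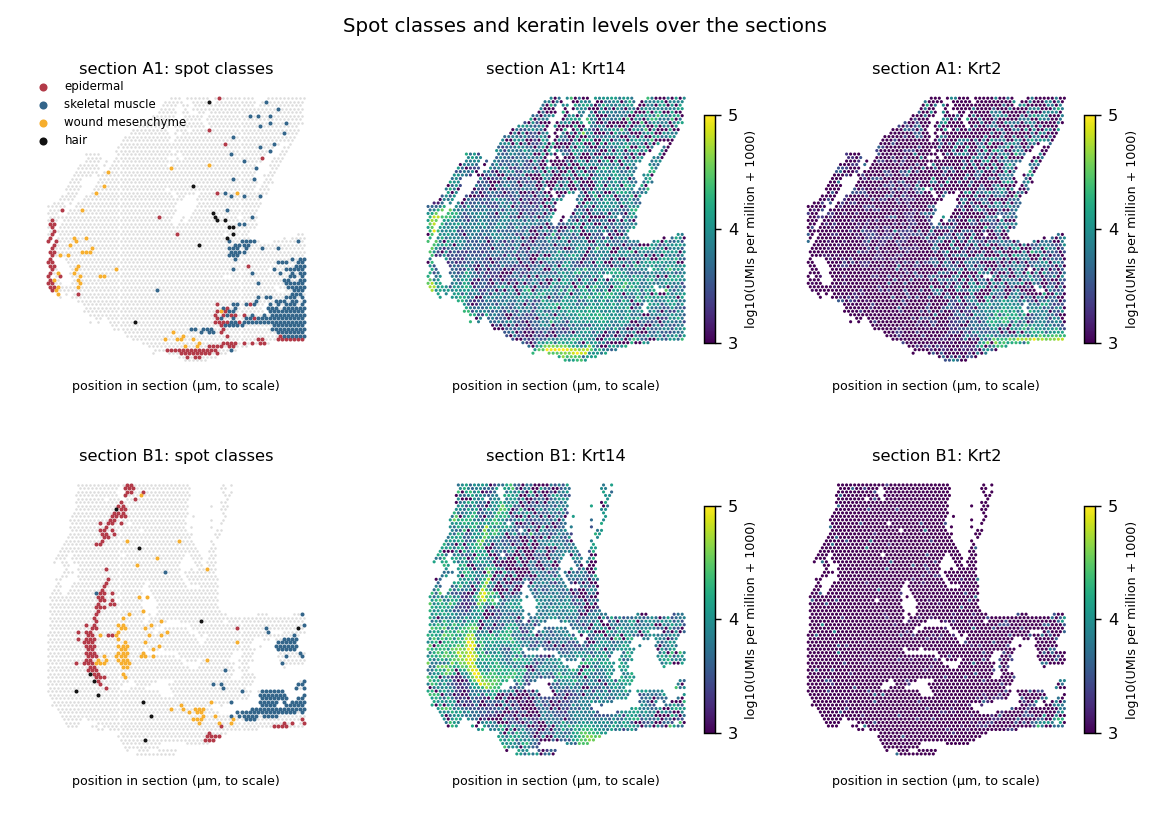
Spots of sections A1 (top) and B1 (bottom) at their positions, to scale in µm, by class (left) and by the level of Krt14 (middle) and Krt2 (right) as log10(CPM + 1000). Krt14 is brightest along the epidermal spots, and Krt2 is brightest in A1 along the epidermal and skeletal muscle spots at the lower right, with 16485 CPM in epidermal spots beside muscle.

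A list of 27 genes that anchor keratins or build the cornified envelope was read beside the keratins. It was higher in keratinocytes for 16 of 18 tested and lower for 1, where 26.0% of all genes were higher. As with the members, listed genes high in 1 group could pass the filter on low counts through that group alone. The counts for this list and for the activation list below are thus a description. The list median log2 difference was 9.23 against -0.03 over all genes. Among those higher were Sprr1a (446.8 and 284.5 CPM) and Dsg3 (61.8 and 37.4 CPM against 0 in all 5 other classes). In suprabasal against basal cells 12 of 18 were higher and 4 lower (median 1.64 against -0.02). Over all genes, 7.93% were higher and 7.67% lower in that comparison. Those higher included Spink5, a protease inhibitor of the skin barrier (4.41, SE 0.51), and Tgm1, which crosslinks the envelope (5.00, SE 0.95). In epidermal spots 15 of 17 were higher and none lower (list median 2.59), where 17.8% of all genes were higher. Examples were Eppk1 (3.87, SE 0.39) and Casp14 (2.88, SE 0.20). Between near and far epidermal spots 0.169% of all genes were higher near and 0.237% lower. Of this list 1 of 17 passed, the granular layer gene Hrnr, which was lower near (-1.43, SE 0.34, adjusted p = 0.0176, edgeR). The Hrnr call was lost without section as a block. Of 24 genes known from activated keratinocytes, 2 are markers of the cell classes and 3 of the spot classes, and were left out of the counts that those classes chose. Of the rest, 10 of 17 tested were higher in keratinocytes and 3 lower (list median 3.31), where 26.0% of all genes were higher. In epidermal spots 5 of 11 were higher and 2 lower, where 17.8% of all genes were higher, but the list median was -0.37, below that of all genes. Hair spots of the looser class had none of either list higher than epidermal spots, with 9 of 17 and 5 of 16 lower. Over all genes, 0.953% were higher and 3.48% lower in those hair spots. In suprabasal cells 5 of 17 tested activation genes were higher and none lower, where 7.93% of all genes were higher and 7.67% lower. Among the 5 were Sprr1b (5.08, SE 0.42) and Fabp5 (2.81, SE 0.42). Near the wound mesenchyme none of 14 tested was higher and Ptgs2 was lower (-2.53, SE 0.60, adjusted p = 0.0176, edgeR), on 1 and 8 UMIs near against 1 and 22 far. This call too was lost without section as a block.

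Over 14 sums of cell classes by library, the 5 genes whose log2 levels were most like those of Krt14 were Dsg3, Aldh3a1, Fcgbp, Ccl27a and Fat2 (Pearson r from 0.94 to 0.96). Those most like Krt10 were Bbox1, Epn3, Efna3, Tmem54 and Sh3rf2 (r of 0.996 or 0.997 for the 5). The sums share their libraries, and the values are a description.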

How the data were processed

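Single-cell and Visium libraries of tenotomy-site tissue were analysed from the deposited matrices. Per the labels and file headers, the authors aligned reads to mm10 with Cell Ranger 5.0.1 (cells) and Space Ranger 2.0.1 (sections) and deposited raw UMI counts per gene and barcode, without normalisation. Per the study's methods the sections were read through gene-specific probes, whose sequences were not examined. The authors also deposited Moran's I, a spatial score per gene, which was ranked. Other deposited per-gene tables were left out.

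The filters on cells were at most 20% mitochondrial UMIs, at least 5% ribosomal UMIs, at least 200 genes, and UMIs and genes up to the 99th percentile of their library. No doublet caller was run. A cell took the class with the largest share of 12 markers detected, if this reached 50% and led the next class by 0.2. Spots needed 100 UMIs and took the list with the smallest Poisson tail, if under 0.001. No keratin was in any list. The members and lists were chosen with earlier results of these data known.

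Counts were summed per class and library and tested with edgeR 4.0.16 (TMM, filterByExpr, quasi-likelihood, Benjamini-Hochberg adjustment over all genes, threshold 0.05), with library or section as a block, since the classes of 1 library come from the same mice. Basal and suprabasal cells were fitted together with the other cell classes, which share the estimate of the spread. Near and far epidermal spots, and hair spots, were likewise fitted with the other spot classes. Each SE is the log2 difference over the root of F. The test was also run on simulated counts for all comparisons but that of hair spots. These counts had a fixed spread and no library or section effect, so they do not cover sums led by single cells. Alternatives were DESeq2 1.42.0, no filter, no block, other class limits, and each library or section alone. CPM is UMIs per 1000000 of the group's sum, with exact Poisson 95% intervals in the plots and a floor of 3 counts. Cell shares were thinned to 10000 UMIs per cell where depth differed.

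Genes named were all basal, suprabasal and wound-induced members, the 3 most abundant members of each other role list, any further member that passed, the partner chains, and the 4 largest changes of each other list per comparison (of which a part is printed). Coordinates are GRCm38.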

Additional observations from a re-analysis of the deposited data

Results flagged for a closer look

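Cells that were assigned to no class were outside every comparison, and a small number of them carried keratin. In library 1-2, 8 of 309 unassigned cells had over 1% of their UMIs in keratins, and in library 3 10 of 183. These cells were shallow, with a median of 793.5 and 1337.5 UMIs, and their median keratin share was 2.64% and 2.78%. A median of 3.5 and 5 of the 12 keratinocyte markers was detected in them. They stood out because mesenchymal cells, the largest class, had a median share of 0.00234% and 0.00239%.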

How the results depend on the processing

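The member counts in keratinocytes, between layers and in epidermal spots stayed within 1.5 times their value in all alternatives run, except that 22 of 37 members were higher in keratinocytes without the filter on low counts, against 13 of 15. The comparison of near and far epidermal spots moved most. Its 12 called genes became 3 with DESeq2, 21 with the 2 groups alone, 32 with a tail under 0.00001, and 24 between the nearest and farthest spots of a division in 3. Members higher near, 1 in the report, became 2 without the filter, 3 with the tail under 0.00001 and 2 in the division in 3. Without section as a replicate block no gene was called (0 members higher, 0 lower and 0 of all genes), although 147 genes were higher and 78 lower at an unadjusted p under 0.05, and DESeq2 called 3 genes. The block was part of the reported fits because the classes of a library or section share their mice. Without it, the layer calls of Krt2, Krt14 and Krt6a were also lost, and Krt25, not called, turned from -0.19 to 0.0215. Krt2 in hair spots, -2.14 over both sections, was -2.47 without section B1 and 0.0109 without section A1. With 1 library or section left out, no residual spread remains, so those values are ratios with no test. Over all alternatives, 67 counts stayed within 1.5 times and 11 did not. Of the values for single genes, 381 stayed the same, as refits that kept direction and call or as untested ratios within the SE. In refits, 11 lost and 9 gained the call. A further 80 untested ratios moved by more than the SE, and 2 values reversed. Untested ratios were counted as reversed only for called genes, so the turn of Krt17 between libraries is not among the 2. The cause of these changes was not tested. A layer margin of 0.2 left under 10 basal cells in library 3 and was not run, and the hair comparison could be run with a tail under 0.01 alone.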

Other observations

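Over all kept spots every one of the 45 members had at least 1 UMI in both sections, whereas 12 of the 49 had none in any kept cell. Type I UMIs exceeded type II UMIs more in epidermal spots than in keratinocytes, at 3.53 times in A1 and 13.2 times in B1, and at 2.22 and 4.67 times once Krt6a, Krt6b and Krt33a were added. The gene sets were unlike: type II Krt79 (1805 and 413.7 CPM in keratinocytes) was not analysed for the sections. Type II Krt77 (3816 and 3890 CPM in keratinocytes) had 1 and 0 UMIs in epidermal spots.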
